A study of Mus musculus with 26 samples.

Results

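*Grb10*, *Ddc*, *Cobl*, *Zrsr1* and *Commd1* lie in 2 imprinted domains of mouse chromosome 11, and their expression was compared between ES cells with and without the zinc finger protein ZFP57. They were taken by symbol from the expression table, 5 genes of 24409, with *Grb10*, *Ddc* and *Cobl* as the *Grb10* domain and *Zrsr1* and *Commd1* as the *Zrsr1* domain. ES cells are pluripotent cells grown from the inner cell mass of the embryo, here from male C57BL/6J embryos and kept in medium with Erk and Gsk3 inhibitors and LIF. The wild-type (WT) cells carry intact *Zfp57*, and the ZFP57 KO cells are zygotic homozygous mutants in which the coding exons for the KRAB domain and the zinc fingers were disrupted in the embryo, so that both genotypes share strain, sex and medium. A zygotic KO does not remove ZFP57 that the mother laid down in the oocyte. In the mutant ES cells themselves, the study found no ZFP57 protein by western blot of whole cell extracts. For RNA-seq, 3 libraries were WT and 2 were KO (reads of 150 bp), and the same numbers held for ZFP57 ChIP-seq (reads of 100 bp). The study describes its WT ChIP-seq libraries as biological replicates and used the same WT and KO cells for RNA-seq, while the labels number the RNA libraries without naming a line for each. The p-values therefore measure the spread between these samples, and how much of it is technical is not known.

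Imprinted genes are expressed mainly from the maternal or from the paternal allele. The choice is set by an imprinting control region (ICR), a CpG-rich stretch that is methylated on 1 parental allele in the germline, and ZFP57 binds methylated ICRs and keeps their methylation after fertilization. *Grb10* encodes an adaptor that restrains insulin and IGF receptor signalling, and it is known for maternal expression in most tissues and for paternal expression in neurons from a promoter close to its ICR. *Ddc*, which encodes the decarboxylase that makes dopamine and serotonin, is known for paternal expression in the embryonic heart, and *Cobl* encodes an actin nucleator. *Zrsr1* is a paternally expressed retrogene for a splicing factor of the U2AF family, and it sits in an intron of *Commd1*, which encodes a copper and endosomal trafficking protein. RNA-seq as deposited does not separate the alleles, so each value below is the sum over both.

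Each ICR carried a single ZFP57 peak. The authors deposited peaks that were called in at least 2 WT replicates, as positions in mm10 without a height, together with a shorter list named for hybrid cells, whose strain is labelled C57BL/6J X 129aa. Of the 1423 peaks, 109 lay on chromosome 11, and 62 of these were also in the hybrid list. All 743 intervals of the hybrid list repeat intervals of the first list exactly, so presence in both is not a second measurement. Within 20 kb of the *Grb10* domain genes there was 1 peak, and within 20 kb of the *Zrsr1* domain genes there was 1 peak, both in the hybrid list too.

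The *Grb10* peak spanned 455 bp at chr11:12025980-12026434 in GRCm38 (mm10), in an intron of *Grb10*. The gene is on the minus strand at chr11:11930499-12037428 (NCBI gene 14783). The peak lay 1537 to 1991 bp inside the gene from the start of its shortest curated RefSeq transcript, and 10986 to 11440 bp from the start of the longer ones. It held 60 CpG dinucleotides, a number reached by 0.843% of all peaks, and a GC content of 67.5%. It held 4 copies of TGCCGC, the hexanucleotide known as the ZFP57 recognition motif, counted on both strands, and only 2.46% of the peaks held as many. Such counts, here and for the *Zrsr1* peak below, make no allowance for width, and the median peak was 291 bp wide. TGCCGC occurred in 92.0% of all peaks and in 11.6% of 32851 promoter windows of 300 bp. The 300 bases that hold all 4 copies are shown as the part of the peak with the hexanucleotide, since the list gives no summit. Capitals mark TGCCGC on the plus strand (1 copy) and its reverse complement GCGGCA (3 copies on the minus strand), in RefSeq's GRCm38.p6 sequence, plus strand, at chr11:12026016-12026315.
*Grb10* peak: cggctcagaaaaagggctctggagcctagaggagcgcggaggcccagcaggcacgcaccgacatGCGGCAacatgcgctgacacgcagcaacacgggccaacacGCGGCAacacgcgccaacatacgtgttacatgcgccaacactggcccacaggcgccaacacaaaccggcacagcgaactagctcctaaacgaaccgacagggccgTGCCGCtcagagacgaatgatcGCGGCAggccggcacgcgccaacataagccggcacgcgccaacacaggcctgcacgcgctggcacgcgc

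The *Zrsr1* peak differed in its letters. It spanned 547 bp at chr11:22972054-22972600, entirely within the 5′ UTR of *Zrsr1*, from 49 to 595 bp after its start. *Zrsr1* is a gene of 1 exon on the plus strand at chr11:22972005-22976496 (NCBI gene 22183), and *Commd1* runs the other way at chr11:22899728-22984539 (NCBI gene 17846), so the peak is also intronic in *Commd1*. It lay 266 to 812 bp inside *Commd1* from the start of the shorter of its curated transcripts and 9684 to 10230 bp from the longer one. The peak held 38 CpG dinucleotides, reached by 2.60% of all peaks, a GC content of 58.0% and no TGCCGC on either strand. It was 1 of 114 peaks (8.01%) without this hexanucleotide, of which 5, itself included, had at least as many CpG. Its most frequent word of 12 bases, AACTGCGCAGGC, was present in 5 copies and in none of the other peaks on either strand. This word was picked after the sequence had been read. A single copy is shown in capitals within 30 bases of the plus strand at chr11:22972341-22972370.
*Zrsr1* peak: tacctgggtAACTGCGCAGGCaggccgtac

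Neither ICR peak contained a soft-masked base, the mark of repeat sequence in the reference, whereas the median peak was soft-masked over 72.0% of its length. Within 1 Mb of *Grb10* or of *Zrsr1* there were 7 other peaks. These were soft-masked over 15.1 to 100.0% and held 2 to 15 CpG. The nearest of these to a *Grb10* domain gene lay 56.5 kb from *Cobl*, at chr11:12521559-12521986, and the nearest to a *Zrsr1* domain gene lay 149.4 kb from *Commd1*, at chr11:22750065-22750351. In 7 of the 9 peaks TGCCGC was followed by AGA, as it was in 59.2% of all peaks, and neither ICR peak was among them. To compare the flanks, 30 bases around every TGCCGC of the *Grb10* peak and the neighbouring peaks are shown, read on the strand of the capitals.
*Grb10* peak, chr11:12026066-12026095, minus strand: cagcgcatgtTGCCGCatgtcggtgcgtgc
*Grb10* peak, chr11:12026106-12026135, minus strand: tggcgcgtgtTGCCGCgtgttggcccgtgt
*Grb10* peak, chr11:12026215-12026244, plus strand: gacagggccgTGCCGCtcagagacgaatga
*Grb10* peak, chr11:12026233-12026262, minus strand: cgtgccggccTGCCGCgatcattcgtctct
Peak in *Zpbp*, chr11:11392744-11392773, plus strand: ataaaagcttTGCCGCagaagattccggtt
Peak in *Zpbp*, chr11:11392814-11392843, minus strand: catgtctgccTGCCGCtctggcaactattg
Peak beyond *Cobl*, chr11:12521836-12521865, plus strand: caccatacttTGCCGCagaccctctggatc
Peak beyond *Cobl*, chr11:12569856-12569885, plus strand: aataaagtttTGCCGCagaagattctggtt
Peak beyond *Cobl*, chr11:12570396-12570425, plus strand: aaatcagcttTGCCGCctcacttatgatgg
Peak near *Commd1*, chr11:22578005-22578034, plus strand: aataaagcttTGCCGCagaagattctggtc
Peak near *Commd1*, chr11:22582960-22582989, plus strand: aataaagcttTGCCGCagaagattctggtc
Peak near *Commd1*, chr11:22731466-22731495, minus strand: gctgacaacaTGCCGCagaccctctggatc
Peak near *Commd1*, chr11:22750231-22750260, minus strand: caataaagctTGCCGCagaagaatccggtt

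Each neighbouring peak has a site followed by AGA, and the peak in *Zpbp* and the farther peak beyond *Cobl* each have another site that is not, as is true of all 4 sites in the *Grb10* peak. TGCCGCAGAAGA was in 5 of the 9 peaks and in 49.6% of all peaks, and TGCCGCAGACCC in 2 of the 9 and in 5.83%. In the promoter windows, which cover the bases just before and after a gene start, TGCCGC was found once at the upstream *Grb10* start and once at the main *Commd1* start. It was not found at the *Zrsr1* start, at the downstream *Grb10* start, at the *Commd1* start near the *Zrsr1* peak or at the listed starts of *Ddc* and *Cobl*.

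**Figure D1:**
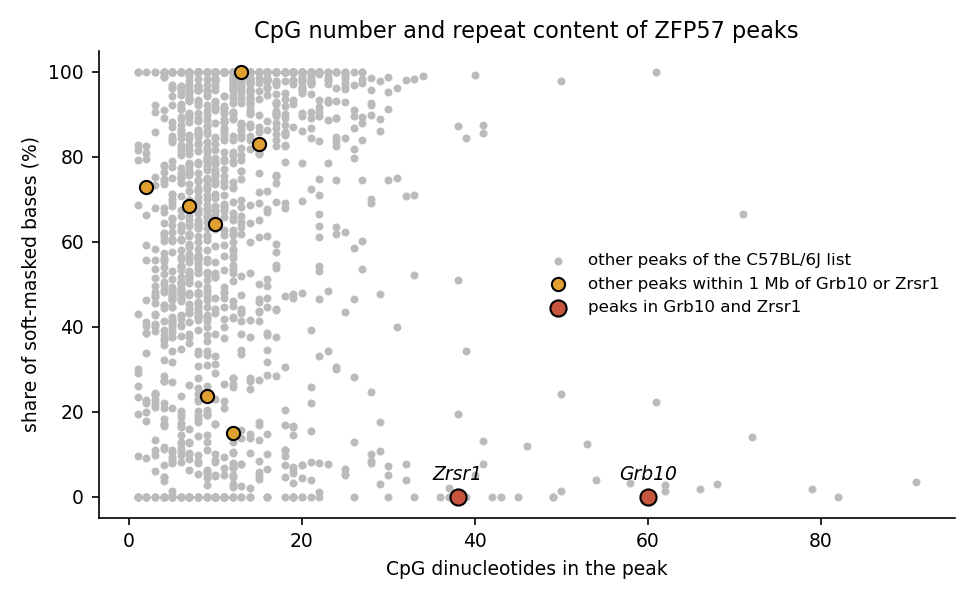
Each point is a ZFP57 peak of the C57BL/6J list, with the number of CpG dinucleotides on the x axis and the share of soft-masked bases (%) on the y axis. The *Grb10* peak with 60 CpG and the *Zrsr1* peak with 38 lie at 0%. The 7 other peaks within 1 Mb of *Grb10* or of *Zrsr1* have at most 15 CpG and lie at 15.1% or above.

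Expression in these domains has to be read against the whole of chromosome 11. The table gives FPKM, fragments scaled to transcript length and to the size of the library. Tests used limma on log2(FPKM + 0.1), a scale that understates changes of low genes, for genes whose mean reached 0.1 FPKM, with Benjamini-Hochberg adjustment at 0.05. The 1224 tested genes of chromosome 11 had a median log2 fold change, KO against WT, of -0.47. It was -0.45 in the first and -0.50 in the second KO library, against 0.01 over the other chromosomes. Each WT library against the other WT libraries gave a chromosome 11 median between -0.06 and 0.05, so the shift exceeded the spread between WT libraries. Of the chromosome's genes 89.5% had a lower mean in the KO. For this reason each gene is given both as measured and relative to chromosome 11, that is after subtraction of the chromosome's median in each library. The chromosome's fall and an effect at the ICRs cannot be told apart from the measured change alone. In bulk RNA, fewer cells expressing a gene and less RNA per cell cannot be told apart either.

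*Zfp57* itself measured 75.9, 72.3 and 70.6 FPKM in WT against 19.0 and 21.6 FPKM in KO, lower by a log2 fold change of -1.84 (limma, adjusted p = 2.3e-04). The table gives 1 value per gene and none for the disrupted exons alone. Markers of ES cells were present in every library, with a summed level of 1110 to 1170 FPKM in WT and 1202 to 1294 in KO for 10 genes, and none of them was at 0. Of these, 5 rose and none fell, among them *Klf4* (0.74) and *Tfcp2l1* (0.60), where 18.8% of all tested genes rose and 22.3% fell. Markers of endoderm and yolk sac (12 genes) summed to 0.97 to 1.16 FPKM in WT and 1.33 to 1.73 in KO, with 1 of 5 tested genes higher (18.8% over all genes), *Sox7* (1.82). Markers of mesoderm and neural cells (10 genes) summed to 14.8 to 17.8 in WT and 13.0 to 17.2 in KO, with 3 of 8 tested genes higher and 1 lower (18.8% and 22.3% over all genes). *Tubb3* makes up most of that sum, and the genes that rose were *Eomes* (2.00), *Sox1* (1.83) and *T* (1.02), while *Nes* fell by 1.00. Markers of fibroblasts (7 genes) summed to at most 0.36 FPKM, with *Col3a1*, *Lum* and *Dcn* listed at 0 in all libraries, and the only tested gene did not pass the test. The part of these marker shifts in the changes below was not tested.

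**Figure D2:**
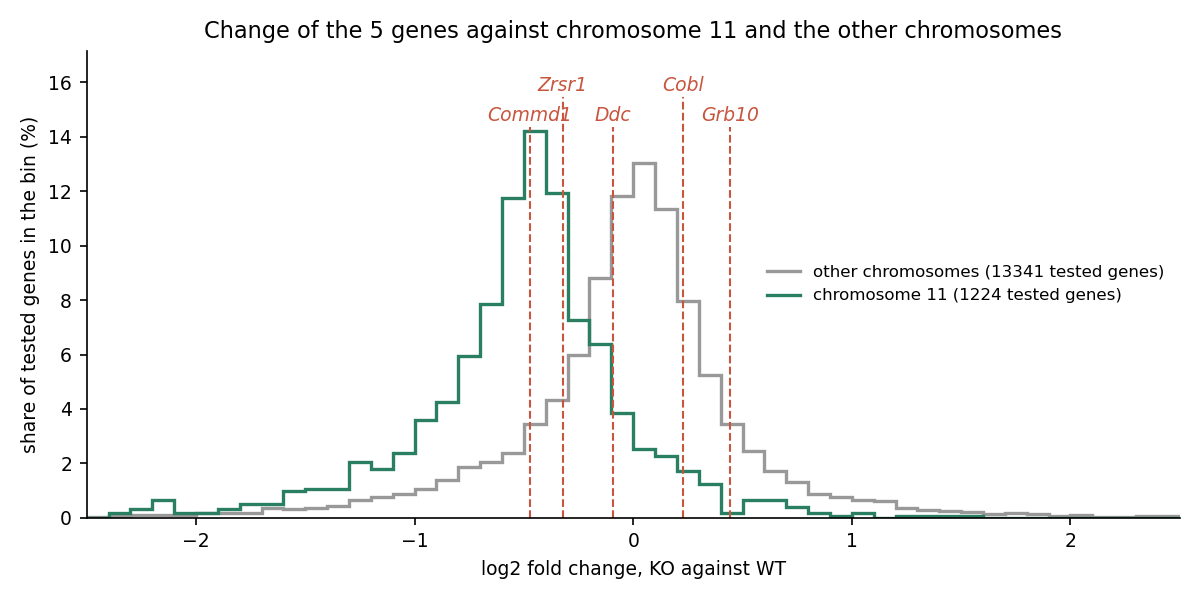
The share of tested genes (%) is plotted against the log2 fold change, KO against WT, in bins of 0.1, for the 1224 genes of chromosome 11 and the 13341 of the other chromosomes, with dashed lines at the 5 genes. *Commd1* lies at the chromosome 11 median of -0.47, and *Grb10* and *Cobl* lie above 0, in its upper tail.

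As measured, 3 of the 5 genes passed the test, *Cobl* higher and *Zrsr1* and *Commd1* lower in the KO, while *Grb10* and *Ddc* did not. Over all 14612 genes tested 41.1% passed, 18.8% higher and 22.3% lower, and on chromosome 11 2.7% were higher and 67.4% lower. On this chromosome a call lower was thus far more common than a call higher. Relative to chromosome 11, *Grb10*, *Ddc* and *Cobl* were higher, and *Zrsr1* and *Commd1* did not pass. In that fit 37.3% of 14565 genes passed, and of the chromosome 11 genes 17.6% were higher and 18.7% lower. With 5 genes in 2 neighbourhoods, no difference from these shares was read.

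*Grb10*, the adaptor at the first ICR, measured 4.61, 7.78 and 5.41 FPKM in WT and 6.75 and 9.26 in KO. The groups overlap, since the second WT library lies above the first KO library, and in each genotype the library numbered 2 is the highest. The means were 5.93 ± 1.65 (SD, n = 3) and 8.01 ± 1.77 FPKM (SD, n = 2). The log2 fold change was 0.44 (SE 0.23, 95% interval from -0.13 to 1.01) and did not pass the test (limma, adjusted p = 0.179). An exact two-sided permutation test over all 10 assignments of the libraries gave p = 0.3, where the smallest p it can give is 0.1. The WT libraries were wide apart, with an SD of 0.38 on the log2 scale, larger than that of 98.3% of 4514 genes at a like level, whose median SD was 0.06. The value moved with single libraries. It was 0.65 and passed without the second WT library (limma, adjusted p = 0.0478), but 0.28 without the first WT library (adjusted p = 0.380). It was 0.22 without the second KO library and 0.67 without the first, where 1 KO library is left and only the WT libraries give a spread.

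Relative to chromosome 11, *Grb10* was higher by 0.92 on the log2 scale (SE 0.26, 95% interval from 0.30 to 1.55; limma, adjusted p = 0.0343), a 1.89-fold difference. Only 34 of the 1224 chromosome 11 genes, *Grb10* included, had a measured change as high, so that 97.2% lay below it. The call depended on single libraries and on the settings. It was lost without the first WT library (0.75, limma adjusted p = 0.0809) and without the third WT library (0.85, adjusted p = 0.0972). Without the second KO library, which leaves 1 KO library, the difference was 0.67. The call was also lost against the median of the 13 genes within 5 Mb, which was -0.31 (0.78, limma adjusted p = 0.0566). With all 5 libraries it was also lost without the filter on low values (limma, adjusted p = 0.0523) and in limma without the variance trend (adjusted p = 0.0750) or with robust variances (adjusted p = 0.0826). The direction was the same throughout.

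*Ddc*, next to *Grb10* at chr11:11814101-11898144 on the minus strand (NCBI gene 13195), showed no measured change past the test. It was at 8.48, 8.66 and 10.39 FPKM in WT and at 8.28 and 8.84 in KO. The groups overlap, with the third WT library the highest. The log2 fold change was -0.09 (SE 0.10, 95% interval from -0.33 to 0.14; limma, adjusted p = 0.474). *Ddc* was higher by 0.38 relative to chromosome 11 (SE 0.09; limma, adjusted p = 0.0192), with 86.0% of the chromosome's genes below it. That call was lost without the first WT library (0.32, limma adjusted p = 0.0514), without the second (0.37, adjusted p = 0.0575), without the second KO library (0.32, adjusted p = 0.0965) and against the genes within 5 Mb (0.29, adjusted p = 0.0900). *1700042O10Rik* overlaps *Ddc* in the annotation, and whether reads were counted by strand is not given in the sources used here.

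*Cobl*, the actin nucleator gene at chr11:12236676-12465022 on the minus strand (NCBI gene 12808), was at 35.56, 35.38 and 36.69 FPKM in WT and at 40.77 and 43.27 in KO. Both KO libraries lie above all WT libraries, which lie close together. Its log2 fold change was 0.23 (SE 0.04, 95% interval from 0.12 to 0.33; limma, adjusted p = 0.0076), which is 1.17-fold. The WT mean was 35.9 ± 0.71 FPKM (SD, n = 3) and the KO mean 42.0 ± 1.77 FPKM (SD, n = 2). The exact permutation p was 0.1, the smallest it can give. Relative to chromosome 11 the difference was 0.71 (SE 0.05; limma, adjusted p = 5.9e-04), and 94.9% of the chromosome's genes lay below it. *Cobl* was 1 of the 33 chromosome 11 genes called higher as measured, and it kept both calls under every alternative that was run.

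**Figure D3:**
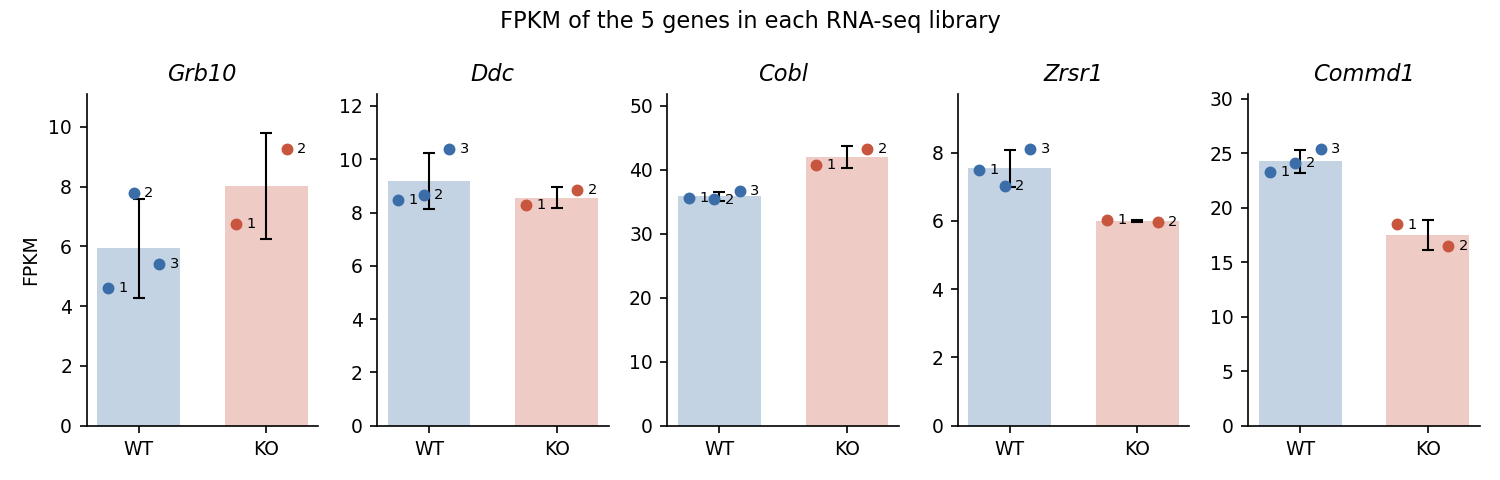
FPKM (y axis, from 0) of the 5 genes in the WT and KO libraries, 1 panel per gene, with points for single libraries and their numbers, bars for means and error bars for the SD. WT and KO overlap in *Grb10* and *Ddc*, the KO points lie above all WT points in *Cobl*, and they lie below in *Zrsr1* and *Commd1*.

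*Zrsr1*, the gene whose 5′ UTR holds the second ICR peak, was at 7.50, 7.02 and 8.11 FPKM in WT and at 6.03 and 5.98 in KO. Both KO libraries lie below all WT libraries and close to each other. The log2 fold change was -0.32 (SE 0.07, 95% interval from -0.50 to -0.15; limma, adjusted p = 0.0151), and the exact permutation p was 0.1. This call rested on both KO libraries. The value was -0.33 without the first and -0.32 without the second, where 1 KO library is left and only the WT libraries give a spread. Relative to chromosome 11 *Zrsr1* differed by 0.16 (SE 0.06) and did not pass (limma, adjusted p = 0.0814), with an unadjusted 95% interval from 0.01 to 0.30. Of the chromosome's genes 69.6% lay below it. The X-linked relative *Zrsr2*, which encodes a factor for the 3′ splice site of minor introns, was at 6.23, 6.36 and 6.29 FPKM in WT and at 6.82 and 7.73 in KO, a difference of 0.20 that did not pass (limma, adjusted p = 0.0553). Reads shared between these relatives could be split between them.

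*Commd1*, the host of *Zrsr1*, was at 23.30, 24.07 and 25.39 FPKM in WT and at 18.46 and 16.48 in KO. All KO values lie below all WT values. The WT mean was 24.3 ± 1.06 FPKM (SD, n = 3) and the KO mean 17.5 ± 1.40 FPKM (SD, n = 2). The log2 fold change was -0.47 (SE 0.06, 95% interval from -0.63 to -0.32; limma, adjusted p = 0.0025). That equals the chromosome's median to 2 decimals. Against the chromosome the difference was 0.01, with an interval from -0.12 to 0.13 (limma, adjusted p = 0.936), and 49.7% of the chromosome's genes lay below it. *Zrsr1* amounted to 32.2, 29.2 and 31.9% of *Commd1* in FPKM in the WT libraries and to 32.7 and 36.3% in the KO libraries. Both KO shares lie above the WT shares, the first only just. The genes overlap on opposite strands and the counting by strand is not given. How far reads of the pair were mixed within the span of *Zrsr1* is therefore not known.

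**Figure D4:**
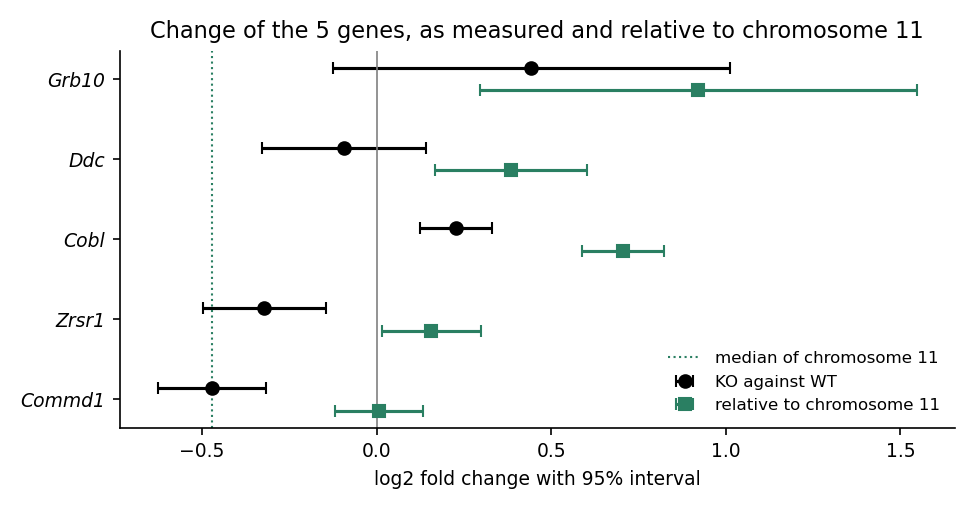
Log2 fold change (x axis) of the 5 genes with 95% intervals, as measured (circles) and relative to chromosome 11 (squares), with the chromosome's median of -0.47 as a dotted line. *Cobl* lies above 0 on both scales, *Zrsr1* and *Commd1* lie below 0 as measured, and *Commd1* lies at 0.01 relative to the chromosome.

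Per transcript length, the order of levels was led in every library by *Cobl*, then *Commd1*. Next came *Ddc* in 4 of the 5 libraries and *Grb10* in the second KO library, while *Grb10* and *Zrsr1* changed places between libraries, so the order of the lowest 3 does not hold beyond the spread. *Grb10* reached 54.4, 89.8 and 52.1% of *Ddc* in WT and 81.5 and 104.8% in KO. It thus passed *Ddc* in 1 KO library only.

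The other genes of the neighbourhoods moved mostly with the chromosome. Within 1 Mb of *Grb10* the table holds 7 other genes, of which 3 were tested, all on the *Ddc* side. *Fignl1*, a DNA repair ATPase gene, fell by 0.46 on the log2 scale from 47.9 ± 2.63 to 34.7 ± 1.41 FPKM (SD, n = 3 and 2; limma, adjusted p = 0.0018). *Ikzf1*, a lymphoid transcription factor gene, fell by 0.90 at levels of at most 0.29 FPKM (limma, adjusted p = 0.0198), and *1700042O10Rik* was at -0.28 without passing (adjusted p = 0.0954). None of the 3 passed relative to chromosome 11, where *Fignl1* was at 0.02 (limma, adjusted p = 0.814), *Ikzf1* at -0.43 (adjusted p = 0.160) and *1700042O10Rik* at 0.20 (adjusted p = 0.205). As measured, 2 of these 3 fell, against 67.4% of the tested genes of chromosome 11.

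Within 1 Mb of *Zrsr1*, 15 of 17 genes other than the *Zrsr1* domain pair were tested, 10 fell, none rose, and the median was -0.42. On chromosome 11 as a whole 67.4% fell, 2.7% rose and the median was -0.47. *Cct4*, a chaperonin subunit gene 14.1 kb from *Zrsr1*, fell by 0.58 from 162, 174 and 188 FPKM to 120 and 114 (limma, adjusted p = 0.0014). *Fam161a*, a ciliary gene 30.2 kb away, fell most, from 3.42, 3.49 and 3.59 to 1.51 and 1.42 FPKM, a log2 fold change of -1.20, and it was also lower relative to chromosome 11 (-0.72; limma, adjusted p = 0.0016). *Xpo1*, the nuclear exporter gene, fell by 0.53. On the other side *B3gnt2* fell by 0.37 and *Ehbp1* by 0.58, and *Tmem17* was at -0.42 without passing. When set against the chromosome, 2 genes were higher, *Pex13* (0.24) and *0610010F05Rik* (0.37), both named after their values were seen, and 1 was lower, against 17.6% higher and 18.7% lower among all chromosome 11 genes in that fit. The values of *Zrsr1* and *Commd1* lay inside the range of this neighbourhood, from -1.20 to 0.38. Its upper end is *Gm12060*, named for this value, which was at most at 0.16 FPKM and did not pass (limma, adjusted p = 0.535).

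**Figure D5:**
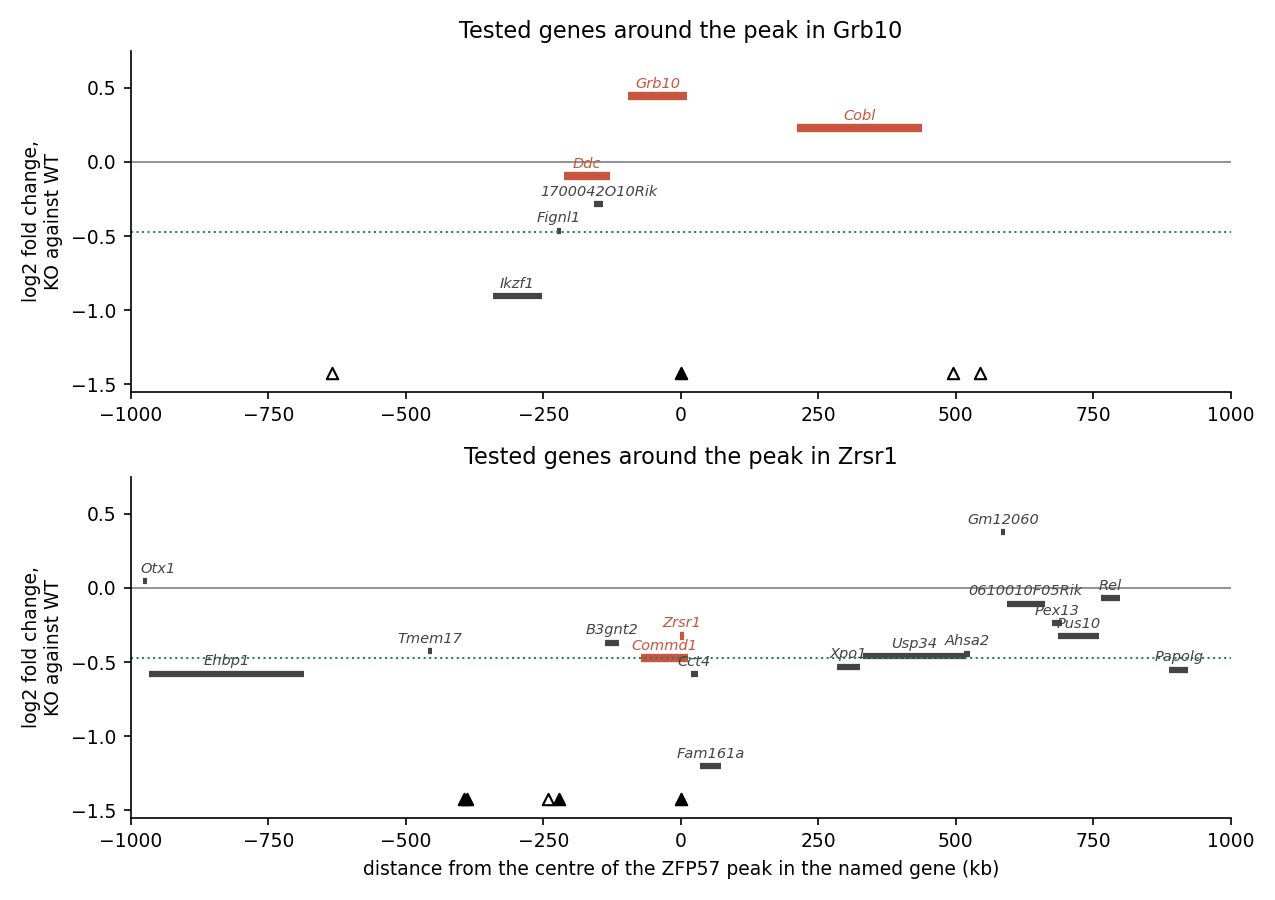
Tested genes within 1000 kb of the centre of the *Grb10* peak (top) and the *Zrsr1* peak (bottom), with the distance in kb on the x axis and the log2 fold change, KO against WT, on the y axis. Bars span the genes, the 5 genes are red, the dotted line is the chromosome 11 median, and triangles mark ZFP57 peaks, filled where the peak is also in the hybrid list. *Grb10* and *Cobl* lie above 0, and most genes around *Zrsr1* lie near the dotted line.

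The tested genes of chromosome 11 were also divided by nearness to any ZFP57 peak. The 68 within 20 kb of a peak (5.56%), *Grb10*, *Zrsr1* and *Commd1* included, had a median log2 fold change of -0.47, with 1 higher and 49 lower. The other 1156 also had a median of -0.47 at 2 decimals, with 32 higher and 776 lower.

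Of 21 genes for the insulin and IGF receptors and for their adaptors and partners, the pathway that GRB10 restrains, 19 were tested. In the KO, 4 rose and 6 fell, with a median log2 fold change of -0.08 against -0.01 over all genes tested, of which 18.8% rose and 22.3% fell. The receptor genes *Insr* (-0.49), *Igf1r* (-0.52) and *Igf2r* (-0.49) were among the 6 that fell, and they were also lower relative to their chromosomes. Of this list 3 genes lie on chromosome 11, and relative to the chromosomes 5 genes were higher and 4 lower (18.5% and 18.7% over all genes), since *Grb2* (-0.05) and *Rptor* (0.03) then no longer passed and *Grb7* did. *Irs2*, an insulin receptor substrate gene, rose from 0.51 ± 0.10 to 0.97 ± 0.14 FPKM (SD, n = 3 and 2), by 0.83 on the log2 scale (limma, adjusted p = 0.0175). *Shc1*, another receptor adaptor gene, rose by 0.67 and *Pik3r1*, the gene for a regulatory subunit of PI3-kinase, by 0.66, while *Nedd4l*, a ubiquitin ligase gene, fell by 0.59. Of the GRB7 family that *Grb10* belongs to, *Grb7* also lies on chromosome 11 and also stood out only relative to it. It was at 2.07, 1.56 and 1.93 FPKM in WT and 2.35 and 2.34 in KO, with a measured 0.33 that did not pass (limma, adjusted p = 0.0933) and 0.81 relative to the chromosome (adjusted p = 0.0046). *Grb14* was at most at 0.21 FPKM and did not pass (-0.50; limma, adjusted p = 0.150). *Insr*, *Igf1r*, *Igf2r*, *Grb2*, *Rptor*, *Grb7* and *Grb14* fall outside the naming rule and were named after their values were seen.

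Of 16 genes for recognition of the 3′ splice site and for the minor spliceosome, the function known for ZRSR proteins, 1 rose and 4 fell (18.8% and 22.3% over all genes), with a median of 0.03. Those that fell include *Zmat5* (-0.95), *Sf3a1* (-0.41) and *Snrnp25* (-0.36), all on chromosome 11. *Rnpc3* on chromosome 3 rose by 0.24. Relative to its chromosome only *Zmat5* of the chromosome 11 genes passed, at -0.47 (limma, adjusted p = 0.0095).

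None of the 15 tested COMMD genes and partners of the COMMD complex lies on chromosome 11. Of these 4 rose and 1 fell (18.8% and 22.3% over all genes), with a median of 0.12, while *Commd1* was at -0.47. *Ccdc93* (0.56), *Ccdc22* (0.36), *Commd3* (0.34) and *Vps29* (0.33), all for proteins of the same endosomal complexes, were the 4 that rose. *Commd10* fell by 0.17.

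Of 17 genes for monoamine synthesis and handling around *Ddc*, only 7 were expressed enough to be tested, 1 rose and 3 fell (18.8% and 22.3% over all genes), with a median of -0.38. *Th*, the gene for the enzyme before DDC in dopamine synthesis, was at 0.03 to 0.04 FPKM in WT and 0.08 and 0.14 in KO and was not tested, and *Dbh* was listed at 0 in all libraries. *Tph2* (-1.23) and *Gch1* (-1.21) fell at levels of at most 0.28 FPKM, and *Qdpr*, a pterin recycling gene, rose by 0.20. *Ddc* at 8.28 to 10.39 FPKM was thus measured beside hydroxylase genes for tyrosine and tryptophan of at most 0.27 FPKM.

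Of 21 genes for actin nucleation around *Cobl*, 18 were tested, 4 rose and 6 fell (18.8% and 22.3% over all genes), with a median of -0.09. Relative to the chromosomes 5 were higher and 5 lower (18.5% and 18.7% over all genes). On chromosome 11 lie *Actr2* and *Dbnl*, which fell as measured, whereas relative to it *Actr2* was at 0.18 without passing and *Dbnl* was higher (0.27). *Pacsin1*, for a membrane-bending protein known to bind Cobl, fell by 1.75 and *Spire2*, another nucleator gene, by 0.74, while the formin genes *Fmn2* and *Fmn1* rose by 0.73 and 0.65. *Cobl* at 35.4 to 43.3 FPKM was exceeded in this list by *Actr2* and *Actr3*, the core genes of the Arp2/3 complex, in every library.

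Among 10664 genes that averaged 1 FPKM or more, compared over the 5 libraries, the genes closest to *Grb10* in log2 values centred on WT were *Snrnp35*, *Snora2b* and *Nme3*, at Euclidean distances of 0.21, 0.24 and 0.30. *Snora2b* was at 6.79, 13.5 and 8.60 FPKM in WT and 11.9 and 13.9 in KO, with the second WT library high as in *Grb10*. The genes closest to *Zrsr1* were *BC031181*, *Heca* and *Fyttd1*, at distances of 0.03, 0.04 and 0.05. None of these 6 lies on chromosome 11, and a pattern over 5 libraries is a description only.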

How the data were processed

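RNA was extracted from total cells, depleted of ribosomal RNA and made into ScriptSeq v2 libraries. The authors deposited expression as FPKM, rounded to 2 decimals, for 24409 genes, and ZFP57 peaks as chromosome, start and end (other values, without a score). The submitters' processing notes name mm10, FastQC 0.11.5, Trim Galore 0.2.7, BWA 0.6.2, Picard, MACS2 2.1.0 and STAR 2.5.2. The annotation, the counting and its strand setting are not given in the sources used here. FPKM keeps no depth, so counting error is unknown.

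Genes were placed on RefSeq GRCm38.p6, 23192 by symbol and 1096 by synonym. The 14612 genes whose mean reached 0.1 FPKM entered limma 3.58.1 (eBayes with trend, R 4.3.3) as log2(FPKM + 0.1), 3 WT against 2 KO libraries without covariates, with Benjamini-Hochberg adjustment over all genes and a threshold of 0.05. The relative fit subtracted from each library the median deviation of the genes of each chromosome and used the 14565 placed genes. The fits were tested on simulated data. Sequence features were read with Python 3.11.15, numpy 2.4.6 and pandas 2.3.3. Protein sequences were not used here.

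The members, the 9 gene lists, the tests and the alternatives were chosen with earlier results of these data known. Named with values were the members, *Zfp57*, *Zrsr2*, the 3 nearest tested genes on each side within 1 Mb, up to 4 called genes with the largest change in each list and the 3 genes most like *Grb10* and *Zrsr1* in pattern. Others are said to have been named after their values were seen, or serve as a count's or a level's reference. Alternatives covered pseudocounts, filters, scaling, the variance model, the chromosome's median, a replicate block, single libraries and peak windows. KAP1, H3K9me3 and the hybrid lines' libraries were not analysed here.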

Additional observations from a re-analysis of the deposited data

How the results depend on the processing

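Measured changes were recomputed under 14 alternatives and relative ones under 16. *Cobl* (0.18 to 0.27 measured, 0.57 to 0.78 relative) and the measured *Commd1* (-0.55 to -0.39) kept direction and call in all. So did *Ddc* as measured (-0.15 to -0.0023) and *Zrsr1* relative (0.06 to 0.19), which stayed short of the threshold. With the replicate block, which also takes WT library 3, which has no KO partner, out of the contrast, there were 3012 calls over all genes in place of 6002, and *Zrsr1* was at -0.27 and no longer passed (limma, adjusted p = 0.0814). Without that library and without the block there were 4229 calls, and *Zrsr1* was at -0.27 and passed (adjusted p = 0.0407). The labels do not say whether same-numbered libraries are paired. Their deviations correlated at -0.07 and -0.04, which cannot settle the point with 2 KO libraries.

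*Grb10* relative to chromosome 11 lost its call without a filter on low values (0.86), without the trend or with a robust eBayes (0.92 in both) and within 5 Mb (0.78). Leaving out a library gave 0.67 to 1.17 relative and 0.22 to 0.67 measured, the latter passing only without the second WT library (0.65). *Ddc* relative gave 0.29 within 5 Mb and 0.32 to 0.46 without a library, and *Zrsr1* as measured -0.37 to -0.27. *Commd1* relative, near 0, changed sign at a pseudocount of 1 (-0.11), without a filter (-0.060), from 1 FPKM (-0.013), after quantile normalisation (-0.024), with the chromosome's median from 1 FPKM (-0.013), within 5 Mb (-0.056) and without single libraries (-0.048 to 0.066). The chromosome 11 median was -0.34 at a pseudocount of 1 and -0.41 without a filter. Within 100 kb the *Grb10* domain had 2 peaks. The causes were not tested. Single libraries were not tested as outliers in groups of 3 and 2.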
